A study of Mus musculus with 17 samples.

Results

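Type 2 conventional dendritic cells (cDC2s) exposed for 6 h to the medium of necroptotic tumor cells were compared with cDC2s exposed to the medium of live tumor cells. The comparison takes 5 of the 17 RNA sequencing samples of the series, namely the 2 cDC2 samples of the RIPK3 condition and the 3 cDC2 samples of the WT condition. The samples were taken by their labels and all genes detected in enough samples were tested, and the comparison was chosen with earlier results of these data known. The 3 cDC2 samples of the BimS condition (apoptotic debris) and the 6 type 1 (cDC1) samples of the RIPK3 and WT conditions are used to show where the response differs, and the former also enter the estimate of the spread.

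The cDC2s came from the spleens of young adult female C57BL/6JRj mice carrying a subcutaneous B16 melanoma that secretes FLT3L, the growth factor that expands dendritic cells. CD11c+ cells were enriched on magnetic beads and cultured at a ratio of 1:1 with uncentrifuged medium of plated TC-1 cells, with all its debris, in the presence of GM-CSF. TC-1 cells derive from mouse lung epithelium and were transformed with the E6 and E7 oncogenes of a human papillomavirus and an activated H-ras. In the RIPK3 condition the medium came from TC-1-iRIPK3, a clone in which cumate switches on mouse RIPK3 fused to a domain that drives its oligomerization, so that the cells die by necroptosis. In the BimS condition it came from TC-1-iBimS, in which cumate switches on BimS, a protein that sets off apoptosis. In the WT condition it came from unmodified TC-1 cells that received cumate as well, so that all cDC2s met tumor cell medium, cumate and GM-CSF. After culture cDC1s and cDC2s were separated by flow cytometry. The medium was not separated into particles and soluble factors, and neither the labels nor the methods say whether the numbered samples are separate groups of mice, so the p-values measure only the spread between these samples.

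Background for the results is as follows. cDC2s are the dendritic cells that present antigen on MHC class II to CD4+ T cells, and they depend on the transcription factor IRF4. Necroptosis is a lytic death executed by RIPK3 and MLKL, in which the cell swells, bursts and spills its contents. A phagocyte that takes up dead cells must handle heme, iron, oxidants and lipids. Heme oxygenase 1 (Hmox1) opens the heme ring, ferritin stores the iron that is freed, and NRF2 (Nfe2l2) is the transcription factor that switches on these genes together with those for glutathione and thioredoxin metabolism, while KEAP1 and BACH1 hold it back. Type I interferon acts in the opposite field, through a complex that includes STAT2 and IRF9, on a large set of interferon-stimulated genes (ISGs) with antiviral roles, many of which are also expressed at a low tonic level in resting cells.

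The 5 libraries held between 16095159 and 18705082 counts. Mitochondrial genes took 0.611% to 0.661% of them. Levels are given as CPM, a gene's counts scaled to a common library size with edgeR's TMM factors. In a principal component analysis of the 500 most variable genes, the first component (39.1% of the variance) placed the WT samples at -13.8, -15.2 and -17.2, the RIPK3 samples at 10.3 and 12, and the BimS samples between 7.48 and 8.93. On the second component (14.8% of the variance) WT replicate 3 lay at -12.6 and the RIPK3 samples at -9.06 and -5.57, whereas the other WT samples and the BimS samples lay between 2.38 and 7.75. The 17 cDC2 identity genes, mostly Notch2, Zeb2, Sirpa and Klf4, summed to 817 to 906 CPM with WT medium and 827 to 851 CPM with RIPK3 medium, against 118 to 146 and 87.7 to 111 CPM for 9 cDC1 markers, mostly Wdfy4, Naaa and Batf3. Of these 9 estimates 3 were higher and 6 lower with RIPK3 medium. Clec9a had 97, 95 and 80 counts with WT medium and 99 and 117 with RIPK3 medium. Xcr1 had 9, 10 and 9 counts with WT medium and 15 and 12 with RIPK3 medium. Among markers of other cells, those of plasmacytoid dendritic cells, mostly Tcf4, summed to 175 to 191 CPM with WT medium and 159 to 160 CPM with RIPK3 medium. B cell markers, mostly Ighm, summed to 35.6 to 41.1 and 46.4 to 46.9 CPM, and markers of TC-1 and adherent cells, mostly Cdh1, to 33.3 to 41.9 and 23.6 to 28 CPM. Cdh1 had 572, 657 and 577 counts with WT medium and 259 and 411 with RIPK3 medium. Of the 11 TC-1 and adherent cell markers tested, however, 9 had higher and 2 lower estimates with RIPK3 medium. Their median log2 fold change of RIPK3 over WT was 0.49, and -0.5 without RIPK3 replicate 1. T and NK cell markers summed to at most 2.04 CPM and neutrophil and monocyte markers to at most 4.4 CPM in these 5 samples. Melanocyte markers summed to 0.115 to 0.591 CPM with WT medium and 0.128 to 0.175 CPM with RIPK3 medium. Of them Dct and Mlana were at 0 in all cDC2 samples, whereas Pmel had 4, 2 and 10 counts with WT medium and 2 and 3 with RIPK3 medium. Of the TC-1 and adherent cell markers Krt7 was at 0. Others were detected, such as Epcam (14, 23 and 18 counts, then 18 and 15) and Tagln (29, 26 and 27, then 27 and 32). The part of these markers of other cells in the results was not tested.

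Of 19239 genes tested, 1387 (7.21%) passed an adjusted p of 0.05 in edgeR's quasi-likelihood test, of which 756 (3.93%) were higher and 631 (3.28%) lower with RIPK3 medium. An unadjusted p under 0.05 was reached by 3563 genes. Of the 1387 genes that passed the adjusted p, 204 rose and 143 fell by over 1 on the log2 scale. The log2 fold change of RIPK3 over WT had a median of -0.02 over all genes tested. Both RIPK3 samples lay outside the range of the 3 WT samples in 6559 genes (34.1%), so that non-overlap alone was common. It was also a condition for naming the largest rises and falls, and adds nothing for genes named by that rule. In bulk samples like these, fewer cells of a type and less RNA per cell cannot be told apart. Adding the replicate number to the model as a block raised the count to 4126 (1933 higher and 2193 lower), and all 1387 genes were called in the same direction. Counts of list members called with the block are to be read beside these 1933 and 2193 of 19239 genes, and not beside the 7.21%. With limma on log2(count + 1) without scaling, which moved the median of all genes to -0.17, the split became 364 higher and 1236 lower. Counts of list members called by limma are likewise to be read beside this split. The count also rested on single libraries: it was 658 without RIPK3 replicate 1, 622 without RIPK3 replicate 2 and 916 without WT replicate 2.

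**Figure D1:**
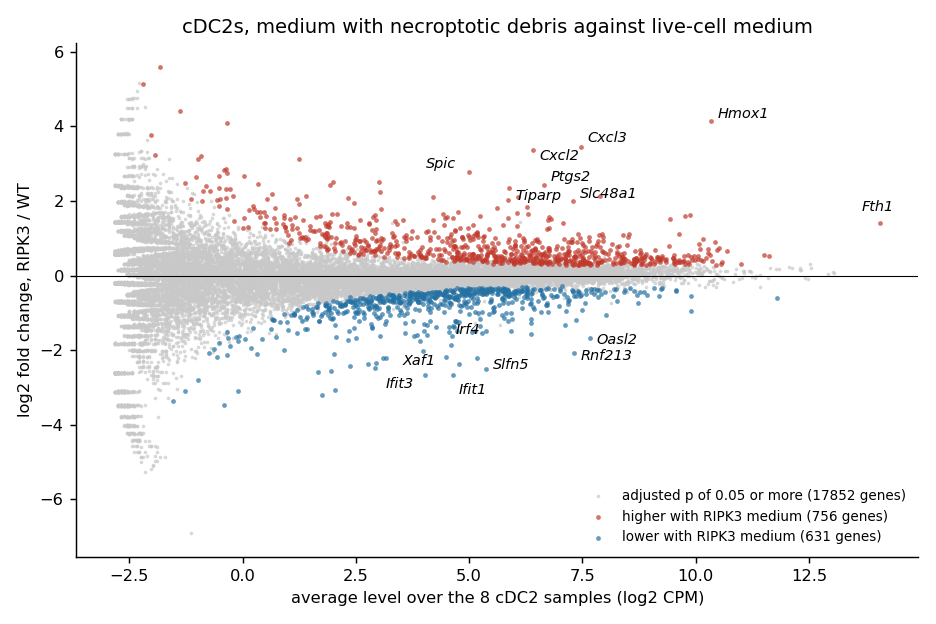
Log2 fold change of RIPK3 over WT medium in cDC2s (vertical axis) against the average level over the 8 cDC2 samples in log2 CPM (horizontal axis), 1 point per gene tested. Red points are the 756 genes called higher, blue points the 631 called lower, and grey points the 17852 not called. Hmox1 lies at 4.13 among abundant genes, and the labelled genes below the line are mostly interferon-stimulated genes.

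Genes for heme and iron handling and for the NRF2 antioxidant program rose together. Of the 29 members of this list, 24 were called higher and none lower, against 3.93% and 3.28% of all genes tested. All 29 estimates were positive, with a median log2 fold change of 0.93 beside -0.02 for all genes tested. The list kept between 21 and 25 higher calls when any of the 5 samples was left out. Hmox1, the heme-degrading oxygenase, had 114, 179 and 161 CPM with WT medium and 2579 and 2720.2 CPM with RIPK3 medium. Both RIPK3 samples stood far above every WT sample, a 17.5-fold difference (log2 fold change 4.13 ± 0.17, adjusted p = 5.32e-08). Hmox1 lost its call in the edgeR fit of the 4 paired samples alone with the replicate block (log2 fold change 4.22, adjusted p = 0.0797). Its rise was the largest of all called genes that did not overlap and had a mean log2 CPM of 3 or more. Slc48a1, which carries heme out of the lysosome, had 51.9, 59.2 and 69.4 CPM with WT medium and 236 and 241 CPM with RIPK3 medium (log2 fold change 1.99 ± 0.11, adjusted p = 5.46e-10). The iron exporter ferroportin, Slc40a1, was low throughout, at 0.513, 0.173 and 0.375 CPM with WT medium and 3.01 and 3.38 CPM with RIPK3 medium (log2 fold change 3.13 ± 0.36, adjusted p = 6.15e-06). In both genes the lowest RIPK3 sample exceeded the highest WT sample. The ferritin heavy chain Fth1 was the most abundant gene in these cells. It had 7502, 9278 and 10857 CPM with WT medium and 24148 and 25162 CPM with RIPK3 medium (log2 fold change 1.42 ± 0.13, adjusted p = 5.93e-06). It thus took 0.781%, 0.961% and 1.14% of the counts in the WT samples and 2.35% and 2.45% in the RIPK3 samples. The ferritin light chain Ftl1 and the biliverdin reductase Blvrb rose by 0.97 and 1.11 on the log2 scale, whereas the other reductase Blvra was not called (log2 fold change 0.13 ± 0.13, adjusted p = 0.682).

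Among the antioxidant members, the peroxiredoxin Prdx1 had 328, 352 and 447 CPM with WT medium and 1166 and 1085 CPM with RIPK3 medium (log2 fold change 1.58 ± 0.15, adjusted p = 2.73e-05). The quinone reductase Nqo1 had 48.8, 42.1 and 57.5 CPM with WT medium and 163 and 120.2 CPM with RIPK3 medium (log2 fold change 1.52 ± 0.15, adjusted p = 3.4e-05), and Gclm, the modifier subunit of the enzyme that makes glutathione, had 286, 329 and 349 CPM with WT medium and 923 and 910.0 CPM with RIPK3 medium (log2 fold change 1.51 ± 0.10, adjusted p = 3.13e-09). The groups did not overlap in any of these genes. Sulfiredoxin (Srxn1), which repairs oxidized peroxiredoxins, had 827, 938 and 1047 CPM with WT medium and 1708 and 1764 CPM with RIPK3 medium (log2 fold change 0.89 ± 0.10, adjusted p = 4.32e-06). Thioredoxin reductase 1 (Txnrd1) had 2472, 2546 and 2238 CPM with WT medium and 3576 and 3437 CPM with RIPK3 medium (log2 fold change 0.54 ± 0.08, adjusted p = 0.000193). For Slc7a11, the cystine importer that feeds glutathione synthesis, the values were 1014, 927 and 713 CPM with WT medium and 1332 and 1345 CPM with RIPK3 medium (log2 fold change 0.60 ± 0.12, adjusted p = 0.00591). These started from high levels with WT medium and rose less. The Slc7a11 call was lost without RIPK3 replicate 1 (adjusted p = 0.0584) or replicate 2 (adjusted p = 0.0957). The NADPH-producing enzymes Me1, Pgd and G6pdx rose by 1.65, 1.11 and 0.50 on the log2 scale, glutathione reductase Gsr by 1.09 and the NRF2 partner Mafg by 1.03. The call of G6pdx was lost without RIPK3 replicate 1 (adjusted p = 0.0566). Not called were the regulators themselves, Nfe2l2 (log2 fold change 0.23 ± 0.08, adjusted p = 0.0943, and 0.24, adjusted p = 5.52e-06 with the replicate block), Keap1 (log2 fold change 0.25 ± 0.09, adjusted p = 0.128, and 0.30, adjusted p = 5.57e-06 with the replicate block) and Bach1 (log2 fold change 0.33 ± 0.12, adjusted p = 0.123, and 0.23, adjusted p = 9.02e-06 with the replicate block). Neither was Tkt (log2 fold change 0.15 ± 0.10, adjusted p = 0.471, and 0.21, adjusted p = 0.00126 with the replicate block). The autophagy receptor Sqstm1, itself an NRF2 target, had 2157, 2294 and 2362 CPM with WT medium and 3353 and 3335 CPM with RIPK3 medium (log2 fold change 0.56 ± 0.08, adjusted p = 0.00012), again without overlap. Limma on log2(count + 1) called neither Txnrd1 (adjusted p = 0.0868) nor Sqstm1 (0.0639).

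The promoter of Prdx1 is shown because it carries a match to the core of the antioxidant response element, the sequence bound by NRF2 with small MAF proteins and, in repression, by BACH1. The window is the 250 bases before the annotated start in GRCm39 with GENCODE gene models, on the + strand, at chr4:116542491-116542740. Capitals mark the match to TGACNNNGC or TGAGNNNGC, searched on both strands. It begins 78 bases before the start.
Prdx1: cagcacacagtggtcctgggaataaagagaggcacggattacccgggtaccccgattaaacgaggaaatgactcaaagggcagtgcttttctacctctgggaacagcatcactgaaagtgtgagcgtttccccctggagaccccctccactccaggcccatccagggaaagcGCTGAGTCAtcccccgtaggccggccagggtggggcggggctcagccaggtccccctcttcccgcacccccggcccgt
Such a match was found in 13 of the 29 list promoters (44.8%), in 29.0% of the 694 protein-coding genes called higher, in 25.4% of the 607 called lower and in 23.8% of all 13525 promoters read. A match is a description of the letters and not a binding site. The main enhancers of a gene can lie outside this window.

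**Figure D2:**
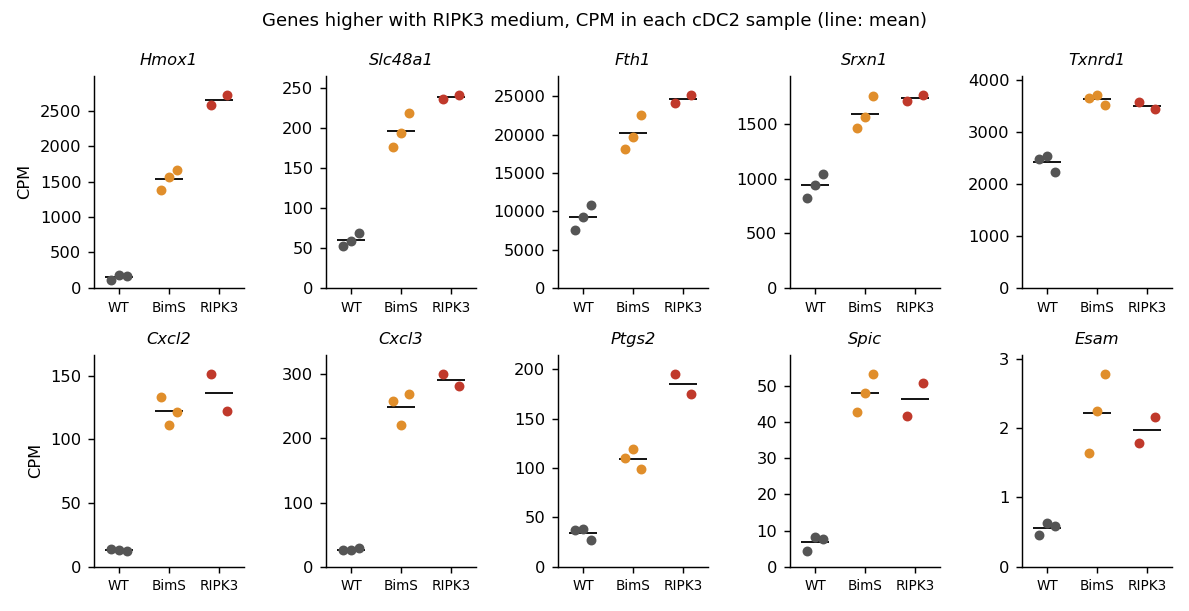
CPM (vertical axes, each starting at 0) of 10 genes that were higher with RIPK3 medium, in each cDC2 sample by condition (horizontal axes: WT, BimS and RIPK3). Points are samples and lines are group means. In every panel both RIPK3 samples lie above all 3 WT samples, and in the panels of Txnrd1, Spic and Esam the BimS mean is above the RIPK3 mean.

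Interferon-stimulated genes fell together. Of the 44 ISGs tested 40 were called lower (90.9%) and none higher by edgeR, beside 3.28% and 3.93% of all genes tested, with a median of -1.51, and this count was between 35 and 40 without any 1 of the 5 samples. With the replicate block 41 were called lower and 1 higher. Ifit1, an antiviral RNA-binding protein, had 41.7, 42 and 42 CPM with WT medium and 7.61 and 5.65 CPM with RIPK3 medium (log2 fold change -2.66 ± 0.17, adjusted p = 1.09e-08). Its WT samples lay within 1 CPM of each other, and both RIPK3 samples were far below them. Ifit3 had 25.2, 28.2 and 29.7 CPM with WT medium and 5.44 and 3.38 CPM with RIPK3 medium (log2 fold change -2.66 ± 0.19, adjusted p = 3.64e-08) and Ifit2 had 45.2, 47.2 and 38.1 CPM with WT medium and 9.59 and 7.34 CPM with RIPK3 medium (log2 fold change -2.36 ± 0.15, adjusted p = 2.08e-09). The near-identical neighbor Ifit3b changed by -2.56, and how reads were split between Ifit3 and Ifit3b is uncertain. Slfn5, a member of the Schlafen family, had 77.7, 68.9 and 60.8 CPM with WT medium and 14.4 and 9.91 CPM with RIPK3 medium (log2 fold change -2.51 ± 0.21, adjusted p = 1.12e-05). None of these groups overlapped. Oasl2, of the oligoadenylate synthetase-like proteins, was among the more abundant ISGs, with 294, 284 and 329.7 CPM with WT medium and 103 and 87.1 CPM with RIPK3 medium (log2 fold change -1.67 ± 0.11, adjusted p = 9.01e-09). Ifi44 changed by -2.58, Rtp4 by -2.20, Xaf1 by -2.19, Oas2 by -1.87, the antiviral dynamin-like GTPases Mx1 and Mx2 by -1.62 and -2.38, and Usp18, the protease that removes ISG15 from proteins and damps interferon receptor signaling, by -2.03. Rnf213, a large ubiquitin ligase, fell by 2.06 ± 0.39 (adjusted p = 0.0308), and its call was lost without WT replicate 1 (adjusted p = 0.0746) or RIPK3 replicate 2 (adjusted p = 0.0988).

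Among the transcription factors of the pathway, Irf7, which amplifies interferon production and is itself induced by interferon, had 104, 101 and 143 CPM with WT medium and 55.3 and 47.5 CPM with RIPK3 medium (log2 fold change -1.17 ± 0.19, adjusted p = 0.00263), and its groups did not overlap. Stat2 and Irf9, which belong to the complex that interferon activates, fell by 0.92 and 0.82 on the log2 scale. Isg15, the ubiquitin-like protein that is among the usual markers of an interferon response, had 62.1, 60.6 and 84.4 CPM with WT medium and 69.5 and 58.2 CPM with RIPK3 medium (log2 fold change -0.11 ± 0.14, adjusted p = 0.754), so that its groups overlapped. Also not called were Oasl1 (log2 fold change -0.31 ± 0.12, adjusted p = 0.169, and -0.25, adjusted p = 0.00146 with the replicate block) and Ifi27l2a (log2 fold change -0.28 ± 0.43, adjusted p = 0.831).

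The promoters of the 3 ISGs with the largest falls among those with a match are printed, and each holds 2 matches to the interferon-stimulated response element, bound by the complex of STAT2 and IRF9 and by other IRF proteins. They come from GRCm39, + strand, 250 bases before the annotated start, at chr19:34618021-34618270 for Ifit1, chr19:34560649-34560898 for Ifit3 and chr19:34585078-34585327 for Ifit3b. Capitals mark GAAA and GAAA separated by 2 bases of any kind, searched on both strands. In the printed strand a match on the other strand reads as its reverse complement.
Ifit1: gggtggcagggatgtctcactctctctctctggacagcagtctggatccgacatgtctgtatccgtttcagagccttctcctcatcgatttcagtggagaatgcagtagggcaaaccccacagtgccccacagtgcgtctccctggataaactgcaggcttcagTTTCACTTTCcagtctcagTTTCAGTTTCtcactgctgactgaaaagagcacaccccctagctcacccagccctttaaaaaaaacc
Ifit3: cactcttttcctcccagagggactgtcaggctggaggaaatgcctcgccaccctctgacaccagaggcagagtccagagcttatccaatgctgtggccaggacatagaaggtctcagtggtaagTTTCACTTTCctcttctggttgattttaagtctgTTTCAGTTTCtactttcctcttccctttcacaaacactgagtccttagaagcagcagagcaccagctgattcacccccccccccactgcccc
Ifit3b: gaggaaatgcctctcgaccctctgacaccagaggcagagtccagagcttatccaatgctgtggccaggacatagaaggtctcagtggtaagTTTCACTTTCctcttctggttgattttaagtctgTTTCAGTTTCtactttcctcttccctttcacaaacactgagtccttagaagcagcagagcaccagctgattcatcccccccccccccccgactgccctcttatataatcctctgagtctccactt
The matches nearest to the start lie 67, 92 and 125 bases before it. The motif was present in 19 of the 44 ISG promoters (43.2%), in 10.2% of the 607 genes called lower, in 3.31% of the 694 called higher and in 3.14% of all 13525 promoters. Matches were not limited to genes that fell, since the promoter of Isg15, which was not called, holds 3. Rtp4 also has 3 and Zbp1 has 4.

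Of the 24 tested genes for interferons, their receptors and nucleic acid sensing, 3 were called higher and 2 lower (20.8% in all, beside 7.21% of all genes), with a median of -0.04. With the replicate block 6 were higher and 5 lower (beside 1933 and 2193 of all 19239 genes), and with limma 4 were lower and none higher (beside 1236 and 364). Sting1, the adaptor for cytosolic DNA, had 99.6, 108 and 128 CPM with WT medium and 62.5 and 62.9 CPM with RIPK3 medium (log2 fold change -0.83 ± 0.11, adjusted p = 3.19e-05), and the groups did not overlap. Cgas, the DNA sensor upstream of it, fell by 0.68 (adjusted p = 0.0019), a call lost without RIPK3 replicate 2 (adjusted p = 0.0558). Irf1 rose by 0.44 (adjusted p = 0.00284) and the kinase Tbk1 by 0.35 (adjusted p = 0.0261). Both calls were lost without RIPK3 replicate 1 (adjusted p = 0.0824 and 0.237), and that of Tbk1 also without RIPK3 replicate 2 (0.155) or WT replicate 2 (0.094). The receptor chains Ifnar1 (log2 fold change 0.16 ± 0.10, adjusted p = 0.447) and Ifnar2 (log2 fold change 0.17 ± 0.11, adjusted p = 0.492, and 0.21, adjusted p = 0.0397 with the replicate block) were not called. Interferon genes Ifnb1 and Ifna4 were not tested. Of the 26 list members 25 had a line in the count table, and 24 were detected in enough samples.

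**Figure D3:**
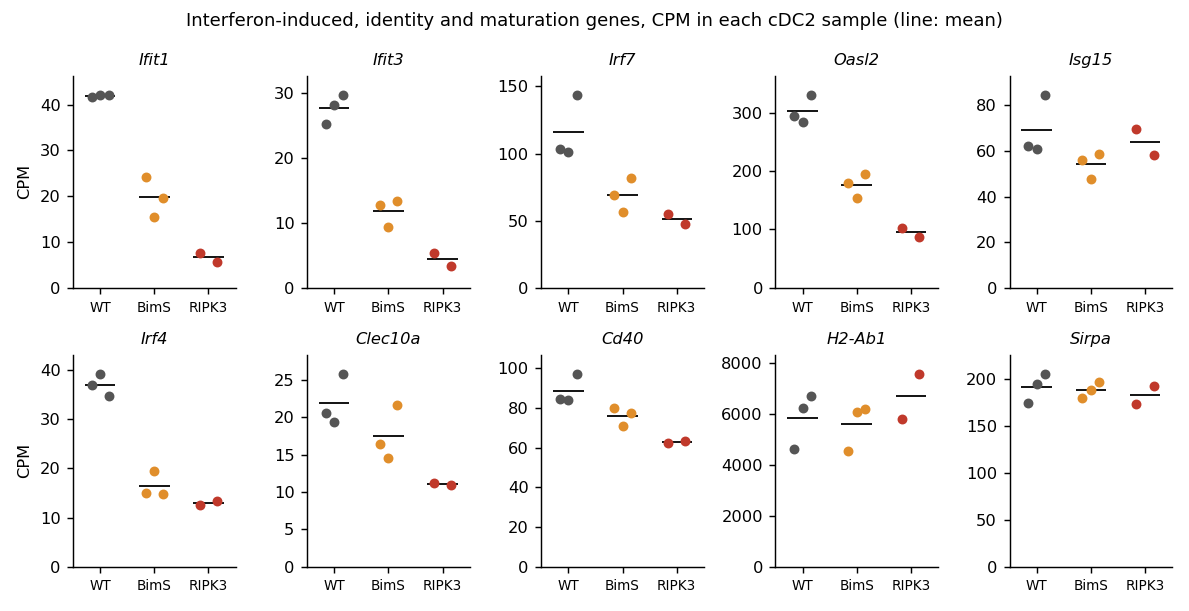
CPM (vertical axes, each starting at 0) of 5 ISGs (upper panels) and of 5 identity, maturation and antigen presentation genes (lower panels) in each cDC2 sample by condition (horizontal axes: WT, BimS and RIPK3). Points are samples and lines are group means. Ifit1, Ifit3, Irf7, Oasl2, Irf4, Clec10a and Cd40 are lower in both RIPK3 samples than in all WT samples, whereas Isg15, H2-Ab1 and Sirpa overlap.

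The neutrophil-attracting chemokines Cxcl3 and Cxcl2, ligands of the receptor CXCR2, showed the smallest adjusted p-values among the genes described here. Cxcl3 had 25.6, 25.4 and 29.5 CPM with WT medium and 300.3 and 282 CPM with RIPK3 medium (log2 fold change 3.44 ± 0.10, adjusted p = 4.11e-14) and Cxcl2 had 14.2, 13.3 and 12.6 CPM with WT medium and 151 and 122 CPM with RIPK3 medium (log2 fold change 3.35 ± 0.11, adjusted p = 1.72e-13). The groups were about an order of magnitude apart. In contrast, Cxcl10, an interferon-induced ligand of CXCR3 that draws T cells, had 10.8, 12 and 12.4 CPM with WT medium and 5.05 and 4.55 CPM with RIPK3 medium (log2 fold change -1.29 ± 0.16, adjusted p = 1.08e-05), with every RIPK3 value below the WT values. Ccl9 was the only other chemokine called, at -0.55 (adjusted p = 0.0468), and its call was lost when WT replicate 2 or 3, BimS replicate 2 or 3 or either RIPK3 sample was left out (adjusted p = 0.0516 to 0.299). In all 2 chemokines were called higher and 2 lower of 16 tested (25%, beside 7.21% of all genes). By limma 2 were higher and 4 lower (beside 364 and 1236 of all 19239 genes), and with the replicate block 4 were higher and 3 lower (beside 1933 and 2193). Ccl22 (log2 fold change -1.33 ± 0.32, adjusted p = 0.0595, and -1.48, adjusted p = 1.05e-88 with the replicate block), Ccl17 (log2 fold change -1.71 ± 0.80, adjusted p = 0.258) and Ccl3 (log2 fold change 0.30 ± 0.50, adjusted p = 0.839) were not called.

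Cxcl3 and Cxcl2 both lie on chromosome 5, and their promoters are shown because each holds a match to the kappaB element of the NF-kB factors. The windows are chr5:90933712-90933961 for Cxcl3 and chr5:91051480-91051729 for Cxcl2 (GRCm39, + strand, 250 bases before the start). Capitals mark 2 overlapping matches to GGGA, 4 bases of any kind and CC, searched on both strands.
Cxcl3: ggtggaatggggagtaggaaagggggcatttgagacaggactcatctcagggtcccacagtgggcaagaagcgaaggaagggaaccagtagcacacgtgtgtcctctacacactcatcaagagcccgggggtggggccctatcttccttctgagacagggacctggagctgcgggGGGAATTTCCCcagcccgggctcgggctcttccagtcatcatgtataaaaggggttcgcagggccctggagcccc
Cxcl2: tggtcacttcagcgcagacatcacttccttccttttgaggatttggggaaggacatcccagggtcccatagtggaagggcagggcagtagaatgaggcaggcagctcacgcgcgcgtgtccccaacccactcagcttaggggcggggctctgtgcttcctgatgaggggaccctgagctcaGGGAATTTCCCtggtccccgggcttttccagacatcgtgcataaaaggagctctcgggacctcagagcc
They start 74 and 75 bases before the start of Cxcl3 and 68 and 69 bases before that of Cxcl2. The motif was found in 8 of 16 chemokine promoters (50%), in 22.2% of the genes called higher, in 21.6% of those called lower and in 20.2% of all promoters. Of the 15 genes for NF-kB subunits and their feedback inhibitors none was called by edgeR, beside 7.21% of all genes. Of the 15, 2 had an unadjusted p under 0.05, beside 3563 of all 19239 genes. These counts were not tested against those over all genes, and no conclusion is drawn from them. DESeq2 called 1 of the 15 higher and limma none. The fit with the replicate block called 4 higher and 2 lower, beside 1933 and 2193 of all 19239 genes. Among the 15 genes were Nfkbia (log2 fold change -0.03 ± 0.09, adjusted p = 0.923), Tnfaip3 (log2 fold change -0.17 ± 0.11, adjusted p = 0.491, and -0.25, adjusted p = 5.84e-05 with the replicate block) and Nfkbiz (log2 fold change 0.06 ± 0.11, adjusted p = 0.836).

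Of 16 cytokines tested 4 were called higher (25%, beside 3.93% of all genes) and none lower by edgeR. Il6 had 39.9, 37.4 and 34 CPM with WT medium and 66.8 and 55.6 CPM with RIPK3 medium (log2 fold change 0.72 ± 0.11, adjusted p = 0.000106). Its groups did not overlap, but the difference was small next to that of the chemokines. Osm rose by 0.63 (adjusted p = 0.00113), Tgfb1, a regulatory cytokine, by 0.52 (adjusted p = 0.000455) and the receptor antagonist Il1rn by 0.40 (adjusted p = 0.0103). The Il1rn call was lost without RIPK3 replicate 1 (adjusted p = 0.0573) or 2 (0.177), and limma called none of Osm, Tgfb1 and Il1rn (adjusted p = 0.0665, 0.143 and 0.427). Il1b, by far the most abundant, had 4711, 4995 and 5820.2 CPM with WT medium and 6401 and 6496 CPM with RIPK3 medium. Both RIPK3 values were above the WT values, and the gene narrowly missed the threshold (log2 fold change 0.32 ± 0.10, adjusted p = 0.0501, and 0.40, adjusted p = 2.84e-19 with the replicate block). Tnf (log2 fold change -0.14 ± 0.24, adjusted p = 0.846) and Il12b (log2 fold change 0.04 ± 0.40, adjusted p = 0.974) were not called.

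Genes of dendritic cell maturation mostly did not pass the test. Of 17 costimulation and migration genes none was called higher and 2 were called lower by edgeR (11.8%, beside 3.28% of all genes). Limma called 6 lower (beside 1236 of all 19239 genes), and the fit with the replicate block 1 higher and 10 lower. Cd40, the receptor for T cell help, had 84.4, 84.1 and 97.1 CPM with WT medium and 62.2 and 63.6 CPM with RIPK3 medium (log2 fold change -0.49 ± 0.10, adjusted p = 0.0027), without overlap, although the call was lost without RIPK3 replicate 1 (adjusted p = 0.0683) or 2 (0.0542). Tnfsf9 fell by 0.82 (adjusted p = 0.0266), a call lost without WT replicate 1 or 2 or either RIPK3 sample (adjusted p = 0.0699 to 0.302). The costimulatory ligands Cd80 (log2 fold change -0.12 ± 0.08, adjusted p = 0.49, and -0.12, adjusted p = 0.0425 with the replicate block) and Cd86 (log2 fold change -0.04 ± 0.08, adjusted p = 0.895) were not called. Neither were the chemokine receptor Ccr7, which guides cells to lymph nodes (log2 fold change -0.31 ± 0.11, adjusted p = 0.133, and -0.23, adjusted p = 4.97e-06 with the replicate block), and the inhibitory ligand Cd274 (log2 fold change 0.31 ± 0.13, adjusted p = 0.221, and 0.21, adjusted p = 2.25e-05 with the replicate block). With the replicate block 10 of the 17 were called lower and 1 higher, beside 2193 and 1933 of all 19239 genes.

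In antigen presentation, the class II genes H2-Ab1 (log2 fold change 0.19 ± 0.19, adjusted p = 0.705, and 0.29, adjusted p = 2.26e-10 with the replicate block) and Cd74 (log2 fold change 0.07 ± 0.13, adjusted p = 0.875, and 0.16, adjusted p = 0.00177 with the replicate block) were not called, and neither was their transactivator Ciita (log2 fold change -0.35 ± 0.11, adjusted p = 0.0553, and -0.37, adjusted p = 1.46e-10 with the replicate block). Of the 14 class II genes the protease Lgmn rose, and the protease Ctss and the thiol reductase Ifi30 fell, by between 0.33 and 0.54 on the log2 scale (21.4% called, beside 7.21% of all genes). With the replicate block 6 class II genes were called higher and 3 lower (beside 1933 and 2193 of all 19239 genes). The calls of all 3 were lost without RIPK3 replicate 1 and without WT replicate 2, those of Lgmn and Ctss also without RIPK3 replicate 2 and that of Ctss in addition without WT replicate 3 or BimS replicate 1 or 2 (adjusted p = 0.0512 to 0.454 over these). With the replicate block 3 of the 14 class I genes were called higher and 6 lower (beside 1933 and 2193 of all 19239 genes). By edgeR without the block 4 of the 14 fell (28.6%, beside 3.28% of all genes), all of which are inducible by interferon. These were the immunoproteasome subunits Psmb9 (log2 fold change -0.67 ± 0.13, adjusted p = 0.00191) and Psmb8 (log2 fold change -0.45 ± 0.10, adjusted p = 0.0055), the peptide transporter Tap1 (log2 fold change -0.57 ± 0.09, adjusted p = 0.000472) and the transactivator Nlrc5 (log2 fold change -0.57 ± 0.12, adjusted p = 0.00536). Without RIPK3 replicate 2 the calls of Psmb9, Psmb8 and Nlrc5 were lost (adjusted p = 0.0708, 0.0991 and 0.16), and without replicate 1 those of Psmb8 and Nlrc5 (0.0869 and 0.0661). H2-K1 (log2 fold change 0.10 ± 0.10, adjusted p = 0.679, and 0.17, adjusted p = 0.000846 with the replicate block) and B2m (log2 fold change 0.01 ± 0.09, adjusted p = 0.986) were not called.

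The identity genes of cDC2s split. Irf4, the transcription factor on which cDC2 function depends, had 37, 39.2 and 34.8 CPM with WT medium and 12.5 and 13.3 CPM with RIPK3 medium (log2 fold change -1.52 ± 0.13, adjusted p = 2.42e-07), and both RIPK3 samples were far below all WT samples. The lectin Clec10a had 20.5, 19.3 and 25.7 CPM with WT medium and 11.3 and 10.9 CPM with RIPK3 medium (log2 fold change -0.98 ± 0.17, adjusted p = 0.000558). Ltb and Cd209a fell by 0.86 and 0.50, calls that were lost without RIPK3 replicate 1 (adjusted p = 0.0977 and 0.372), for Ltb also without RIPK3 replicate 2 (0.138) and for Cd209a without WT replicate 2 (0.0663). In the opposite direction, the adhesion molecule Esam, a marker of the NOTCH2-dependent splenic cDC2s, had 0.462, 0.633 and 0.589 CPM with WT medium and 1.79 and 2.16 CPM with RIPK3 medium (log2 fold change 1.81 ± 0.34, adjusted p = 0.0015), at a low level throughout. Dtx1, a NOTCH target, rose by 1.49 (adjusted p = 5.07e-05) and Clec4a4 by 0.63, the latter lost without RIPK3 replicate 1 (adjusted p = 0.155) or 2 (0.102). The genes of the surface proteins used for sorting were not called, with 174, 194 and 205 CPM with WT medium and 173 and 192 CPM with RIPK3 medium for Sirpa (log2 fold change -0.07 ± 0.09, adjusted p = 0.803) and a log2 fold change of -0.02 for Itgam, which encodes CD11b (adjusted p = 0.97). In all 3 of the 17 identity genes were called higher and 4 lower (41.2%, beside 7.21% of all genes).

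Stress and immediate early genes rose in part. Of 20 immediate early factors 9 were called higher (45%, beside 3.93% of all genes) and none lower by edgeR, whereas limma called 5 higher and 1 lower and the fits with the replicate block or with no filter 9 higher and 1 lower. Fos had 76, 72.5 and 75.4 CPM with WT medium and 118 and 124 CPM with RIPK3 medium (log2 fold change 0.70 ± 0.09, adjusted p = 1.84e-05), without overlap. Its relative Fosl1 rose by 1.79 (adjusted p = 1.17e-06), Egr2 by 1.00 (adjusted p = 0.00152) and the nuclear receptor Nr4a2 by 0.79 (adjusted p = 4.32e-06), whereas Egr1 (log2 fold change -0.01 ± 0.27, adjusted p = 0.993) and Nr4a1 (log2 fold change 0.07 ± 0.11, adjusted p = 0.842) were not called. Of 21 genes of the ATF4 response to amino acid shortage and protein stress, 6 were called higher by edgeR (28.6%, beside 3.93% of all genes), 2 by limma and 10 with the replicate block. They include Cebpb, with 26.8, 39 and 34.4 CPM with WT medium and 122 and 116 CPM with RIPK3 medium (log2 fold change 1.84 ± 0.26, adjusted p = 0.00578), and Ddit4, an inhibitor of mTORC1 that rose by 1.32 (adjusted p = 1.34e-07). Atf3 rose by 0.48 (adjusted p = 0.0307), but the call was lost without either RIPK3 sample or without WT replicate 1 or 2 (adjusted p = 0.0589 to 0.378). The ATF4 targets Trib3 (log2 fold change 0.35 ± 0.19, adjusted p = 0.382, and 0.39, adjusted p = 4.58e-06 with the replicate block), Asns (log2 fold change 0.19 ± 0.14, adjusted p = 0.545, and 0.26, adjusted p = 0.000227 with the replicate block) and Chac1 (log2 fold change 0.13 ± 0.14, adjusted p = 0.717) were not called. Heat shock genes gave 3 higher calls of 14 by edgeR (21.4%, beside 3.93% of all genes), none by limma and 8 higher and 1 lower with the replicate block. Hspa1a rose by 0.72 and is nearly identical to Hspa1b, so the split of reads between them is uncertain. Its call was lost without WT replicate 2 or either RIPK3 sample (adjusted p = 0.117 to 0.226). Those of Bag3 (0.50) and Hsp90aa1 (0.44) were lost without RIPK3 replicate 1 (0.0661 and 0.17).

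Genes of lipid and sugar metabolism were called in both directions. By edgeR 23.8% of the cholesterol list, 37.5% of the list of LXR targets and fatty acid synthesis, 30.8% of the lipid droplet list and 40.9% of the glycolysis and hypoxia list were called, beside 7.21% of all genes tested. Of the 21 cholesterol genes 5 were called higher and none lower by edgeR, with a median of 0.27, and limma called 1 higher. Among them were the synthetic enzymes Sqle (0.64) and Cyp51 (0.42). The Cyp51 call was kept in 3 of 8 leave-outs, with adjusted p-values from 0.00684 to 0.384. None of these 5 calls was kept without RIPK3 replicate 1, where the list had 0 higher calls, although its median was 0.26 there and edgeR without this sample called 658 genes in all. With the replicate block 12 of the 21 were called higher and 1 lower. Of the 16 LXR target and fatty acid synthesis genes, a list that also holds cholesterol exporters, 5 were called lower and 1 higher. Scd1, the stearoyl-CoA desaturase, had 28.2, 31.3 and 32.3 CPM with WT medium and 9.91 and 13.6 CPM with RIPK3 medium (log2 fold change -1.38 ± 0.15, adjusted p = 3.23e-06), and Scd2 fell by 0.97 (adjusted p = 1.21e-05). Fads1 fell by 0.91 and Fads2 rose by 0.98, both lost without RIPK3 replicate 1 (adjusted p = 0.0558 and 0.0962) and Fads2 also without replicate 2 (0.108). The cholesterol exporter Abcg1 fell by 0.62 (adjusted p = 0.00021), while its partner Abca1 was not called (log2 fold change -0.16 ± 0.22, adjusted p = 0.799, and -0.32, adjusted p = 1.27e-06 with the replicate block).

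Hilpda, a lipid droplet protein that blocks lipolysis and is induced by hypoxia, had 1.49, 0.978 and 1.39 CPM with WT medium and 6.52 and 8.1 CPM with RIPK3 medium (log2 fold change 2.5 ± 0.22, adjusted p = 1.95e-07), and the fatty acid receptor Cd36 rose by 0.59 (adjusted p = 0.000167). Both were without overlap. Fabp5 and Acsl1 fell by 0.39 and 0.55, and both calls were lost without RIPK3 replicate 2 (adjusted p = 0.167 and 0.0948). Glycolysis and hypoxia genes gave 8 higher calls and 1 lower call of 22 by edgeR, and 3 higher and 2 lower by limma. The lower call, of hexokinase 1 (Hk1), which fell by 0.36 (adjusted p = 0.0361), was lost with DESeq2 and in 6 of the 8 leave-outs. The lactate exporter Slc16a3 rose by 0.90, hexokinase 2 (Hk2) by 0.76, the glycolytic regulator Pfkfb3 by 0.76, the glucose transporter Slc2a1 by 0.57 and Vegfa by 0.58, with adjusted p-values of 2.12e-06, 0.000345, 2.34e-05, 0.000601 and 0.000126 in that order. Limma called neither Slc2a1 (adjusted p = 0.102) nor Vegfa (0.0586). Lactate dehydrogenase Ldha was not called (log2 fold change -0.16 ± 0.12, adjusted p = 0.574). The list's median was 0.04, and it was -0.14 with limma on unscaled log2 counts. Metallothionein genes Mt1 (log2 fold change 0.25 ± 0.26, adjusted p = 0.696) and Mt2 (log2 fold change 0.17 ± 1.07, adjusted p = 0.973) were not called, and of the zinc transporters Slc39a4 alone was, at 1.04 (adjusted p = 0.0483), a call lost without WT replicate 1, any BimS sample or either RIPK3 sample (0.0505 to 0.29).

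Matrix remodelling and growth factor genes gave 8 higher calls (50%, beside 3.93% of all genes) and no lower call of 16, with a median of 0.83 by edgeR and 0.39 by limma. Mmp19, a matrix metalloproteinase, had 46.8, 55.1 and 53.4 CPM with WT medium and 159.6 and 145 CPM with RIPK3 medium (log2 fold change 1.56 ± 0.10, adjusted p = 2.05e-09), with the groups far apart. Thrombospondin 1 (Thbs1) rose by 1.48 (adjusted p = 9.01e-09), the EGF receptor ligand amphiregulin (Areg) by 1.36 (adjusted p = 3.11e-07) and the protease inhibitor Timp1 by 1.21 (adjusted p = 0.00315, and 0.0572 without RIPK3 replicate 2). Mmp13 rose by 1.70 (adjusted p = 0.0118), a call lost without RIPK3 replicate 2 (adjusted p = 0.322), where the list had 4 calls in place of 8. The EGF receptor ligand Hbegf was not called (log2 fold change -0.01 ± 0.18, adjusted p = 0.982).

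**Figure D4:**
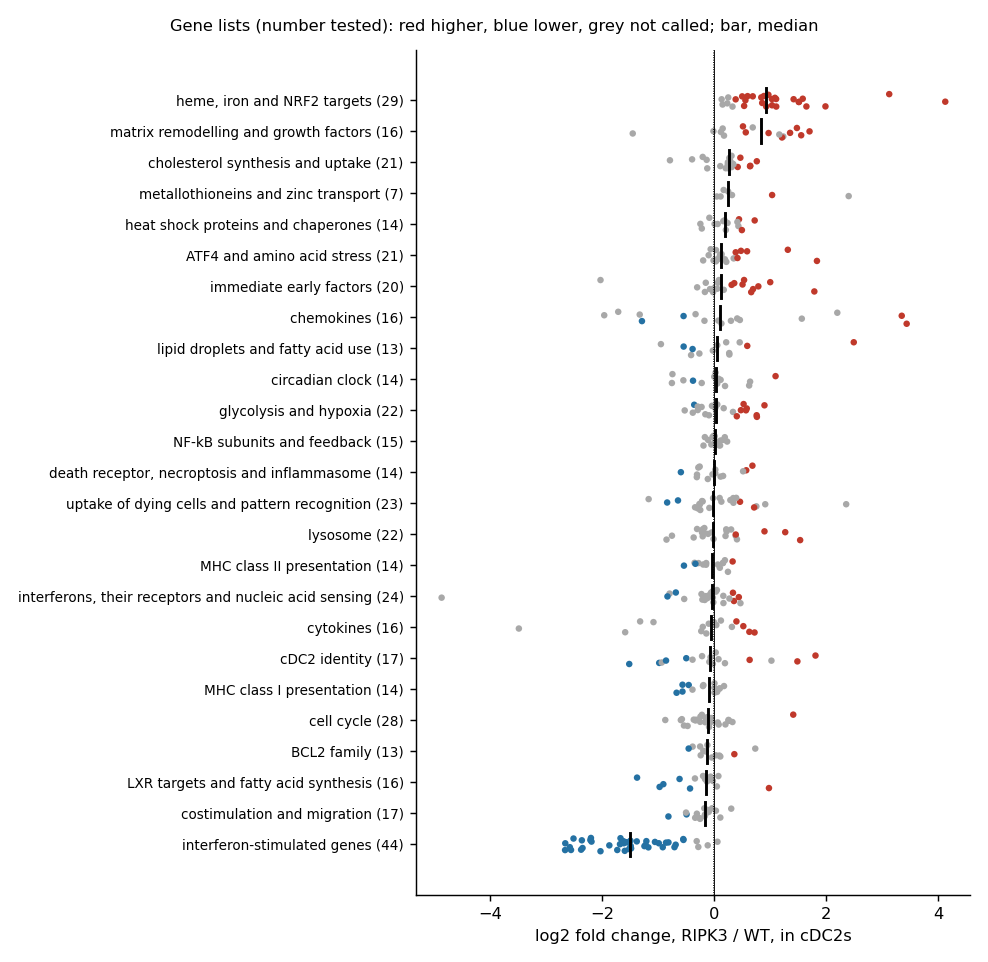
Log2 fold change of RIPK3 over WT medium in cDC2s (horizontal axis) of each tested member of 25 gene lists (vertical axis, number tested in parentheses), 1 point per gene. Red points are called higher, blue points lower and grey points not called, and black bars are medians. Of the 44 ISGs 43 lie to the left of 0, and all 29 heme, iron and NRF2 genes to its right, while most other lists are centered near 0.

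Receptors for dying cells and microbes gave 2 higher and 2 lower calls of 23 (17.4%, beside 7.21% of all genes), and 6 higher and 4 lower with the replicate block (beside 1933 and 2193 of all 19239 genes). The lectin Clec4n (Dectin-2) rose by 0.71 (adjusted p = 8.46e-05) and Lrp1, a receptor for calreticulin, by 0.46 (adjusted p = 0.00615), the latter lost without RIPK3 replicate 2 (0.205). Timd4, a phosphatidylserine receptor, fell by 0.84 (adjusted p = 3.19e-05) and the Fc receptor Fcgr1 by 0.65 (adjusted p = 0.0128), the latter lost without WT replicate 2 or either RIPK3 sample (0.0588 to 0.213). Not called were Axl (log2 fold change -0.25 ± 0.21, adjusted p = 0.608), Mfge8 (log2 fold change 0.13 ± 0.16, adjusted p = 0.763), Tlr2 (log2 fold change -0.21 ± 0.13, adjusted p = 0.443) and Clec4e (log2 fold change -0.26 ± 0.27, adjusted p = 0.703). Of 22 lysosomal genes 4 were called higher (18.2%, beside 3.93% of all genes) and none lower by edgeR, 3 higher and 1 lower by limma and 10 higher and 2 lower with the replicate block. Mitf, a transcription factor of lysosome biogenesis, rose by 1.27 (adjusted p = 7.48e-07) and the acid lipase Lipa by 0.90 (adjusted p = 3.17e-06). Ctsk rose by 1.54 and the cholesterol transporter Npc1 by 0.39. Their calls were lost without WT replicate 2 (adjusted p = 0.0572 and 0.0665) or RIPK3 replicate 1 (0.28 and 0.178), and that of Npc1 also without RIPK3 replicate 2 (0.0963). Lamp1 (log2 fold change -0.11 ± 0.10, adjusted p = 0.629), Ctsd (log2 fold change 0.39 ± 0.15, adjusted p = 0.142, and 0.50, adjusted p = 7.36e-06 with the replicate block) and Ctsl (log2 fold change -0.20 ± 0.16, adjusted p = 0.568) were not called.

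Of 14 death receptor, necroptosis and inflammasome genes 2 were called higher and 1 lower (21.4%), and of 13 BCL2 family genes 1 was called in each direction (15.4%), beside 7.21% of all genes tested. Ripk3 itself had 22.8, 26.3 and 31 CPM with WT medium and 35.2 and 44.2 CPM with RIPK3 medium (log2 fold change 0.57 ± 0.16, adjusted p = 0.0452). The debris in the RIPK3 condition came from cells that express a mouse RIPK3 transgene, and the part of its transcript in these counts was not tested. The BimS samples had 29.8, 35 and 43.4 CPM. The call was lost without WT replicate 1 or 2, BimS replicate 2 or RIPK3 replicate 2 (adjusted p = 0.0617 to 0.38). Tnfrsf1a, a receptor for TNF, rose by 0.68 (adjusted p = 0.000505, and 0.0539 without RIPK3 replicate 2), and Fadd fell by 0.59 (adjusted p = 0.0305), lost without WT replicate 3 or either RIPK3 sample (0.0507 to 0.416). Mlkl (log2 fold change 0.52 ± 0.33, adjusted p = 0.45) and Nlrp3 (log2 fold change 0.02 ± 0.14, adjusted p = 0.973) were not called. In the BCL2 family Bax rose by 0.36 and Bbc3 (PUMA) fell by 0.46. Bcl2 (log2 fold change 0.09 ± 0.17, adjusted p = 0.864), Mcl1 (log2 fold change -0.25 ± 0.09, adjusted p = 0.102, and -0.28, adjusted p = 1.58e-08 with the replicate block) and Bcl2l11 (log2 fold change 0.11 ± 0.09, adjusted p = 0.584) were not called. The Bax call was lost in 7 of the 8 leave-outs (adjusted p = 0.0501 to 0.266) and that of Bbc3 without WT replicate 2 or either RIPK3 sample (0.058 to 0.234). Of 28 cell cycle genes edgeR called 1 (3.57%, near the 3.93% of all genes called higher), Ccne2, at 1.41, a call lost without RIPK3 replicate 1 (adjusted p = 0.111). DESeq2 called 2 of these genes higher, limma 1 in each direction and the fit with the replicate block 2 higher and 6 lower (beside 1933 and 2193 of all 19239 genes). Proliferation markers Mki67 (log2 fold change -0.15 ± 0.22, adjusted p = 0.815, and -0.23, adjusted p = 0.00943 with the replicate block) and Top2a (log2 fold change -0.16 ± 0.14, adjusted p = 0.625, and -0.22, adjusted p = 0.00622 with the replicate block) were not called. Per1, of the circadian clock, had 24.1, 28.9 and 27.4 CPM with WT medium and 51.4 and 63.2 CPM with RIPK3 medium (log2 fold change 1.1 ± 0.11, adjusted p = 1.17e-06), without overlap, whereas Nr1d1 (log2 fold change -0.75 ± 1.32, adjusted p = 0.853) and Bhlhe40 (log2 fold change 0.12 ± 0.08, adjusted p = 0.515, and 0.12, adjusted p = 0.0288 with the replicate block) were not called. Tef, of the same list, fell by 0.38 (adjusted p = 0.0465), a call lost in 7 of the 8 leave-outs (0.0544 to 0.402).

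Several of the largest rises lay outside these lists, apart from that of Spic, which is in the list of macrophage markers. Spic, the transcription factor of the macrophages that recycle red cells and iron, had 4.41, 8.11 and 7.76 CPM with WT medium and 41.7 and 50.6 CPM with RIPK3 medium (log2 fold change 2.78 ± 0.20, adjusted p = 2.27e-06). The summed level of the 11 macrophage markers was 25.8 to 30.6 CPM with WT medium and 55.0 to 65.3 CPM with RIPK3 medium. Without Spic it was 19.5 to 22.8 CPM and 13.3 and 14.6 CPM. Of the 11 estimates 6 were higher and 5 lower, with a median of 0.08, and the part of these markers in the results was not tested. Mrc1, the most abundant of them after Spic in the RIPK3 samples, fell by 1.05 (adjusted p = 0.0387), a call lost without WT replicate 2, BimS replicate 2 or either RIPK3 sample (adjusted p = 0.0599 to 0.324). Ptgs2, the inducible cyclooxygenase that makes prostaglandins, had 36.8, 38.4 and 27.6 CPM with WT medium and 195 and 175 CPM with RIPK3 medium (log2 fold change 2.43 ± 0.12, adjusted p = 2.98e-10), and Ptgr1, which degrades prostaglandins and leukotrienes, had 1.23, 1.27 and 2.78 CPM with WT medium and 11.3 and 8.74 CPM with RIPK3 medium (log2 fold change 2.5 ± 0.41, adjusted p = 0.00708). Neither gene overlapped between the groups, which was a condition for naming them among the largest rises. The endothelin receptor Ednrb had 81.1, 71.8 and 71.9 CPM with WT medium and 348 and 303 CPM with RIPK3 medium (log2 fold change 2.12 ± 0.10, adjusted p = 2.11e-11), and Procr, the endothelial protein C receptor, had 415, 442 and 519.5 CPM with WT medium and 1426 and 1419.5 CPM with RIPK3 medium (log2 fold change 1.63 ± 0.10, adjusted p = 2.31e-09). In both genes the RIPK3 samples were above every WT sample. The kinase Sgk1 rose by 2.10, Sel1l3 by 2.23, Peg10 by 2.10 and Samd11 by 1.81.

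Among the falls, the interferon-inducible GTPase genes Ifi47, Tgtp2 and 9930111J21Rik2 changed by -2.21, -1.63 and -2.20. Tgtp2 has a near-identical copy, so its share of reads is uncertain. Lgals3bp fell by 1.76 (adjusted p = 9.03e-08). The intermediate filament Vim fell from a high level, with 3931, 4753 and 4280.1 CPM with WT medium and 2563 and 3114 CPM with RIPK3 medium (log2 fold change -0.61 ± 0.11, adjusted p = 0.000853). The groups did not overlap, and the call was lost without RIPK3 replicate 1 (adjusted p = 0.0836). Appearing from at most 3 counts in each WT sample were 2 genes. Gm8482, a processed pseudogene, had 2, 1 and 1 counts with WT medium and 22 counts in both RIPK3 samples, and Pcdhga12, a protocadherin whose gene overlaps others of its cluster, had 3, 2 and 0 counts and then 14 and 15. DESeq2 gave no adjusted p for Pcdhga12.

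The response to necroptotic debris was next set beside that to apoptotic debris, which shared the same WT controls. Between the RIPK3 and BimS samples, 73 genes (0.379%) were called, 31 higher and 42 lower with RIPK3 medium, and 1653 had an unadjusted p under 0.05. The heme, iron and NRF2 list had none of its 29 members among them by edgeR, with 3 higher and 1 lower at an unadjusted p under 0.05, whereas DESeq2 called 1 higher and the replicate block 7 higher and 4 lower. Hmox1, with 1380 to 1658 CPM in the BimS samples, differed by 0.79 ± 0.15, adjusted p = 0.0673. ISGs were the largest group, with 17 of 44 called lower and none higher by edgeR. Ifit1 was at 24.1, 15.4 and 19.7 CPM in the BimS samples, between the WT and the RIPK3 values (-1.57 ± 0.18, adjusted p = 0.000476), as were Ifit2 (-1.45 ± 0.15, adjusted p = 0.000104), Ifit3 (-1.43 ± 0.20, adjusted p = 0.00232), Oasl2 (-0.89 ± 0.11, adjusted p = 0.000742) and Rsad2 (-0.90 ± 0.14, adjusted p = 0.00466). Cxcl10 (-0.76 ± 0.16, adjusted p = 0.0412) and Ciita (-0.56 ± 0.11, adjusted p = 0.0214) were lower too. Higher with RIPK3 than with BimS medium were Per1 (0.87 ± 0.11, adjusted p = 0.000742), Ptgs2 (0.76 ± 0.12, adjusted p = 0.00605), Ddit4 (0.67 ± 0.11, adjusted p = 0.00699), Fos (0.60 ± 0.09, adjusted p = 0.00265), Nr4a2 (0.52 ± 0.09, adjusted p = 0.00892) and Il6 (0.50 ± 0.11, adjusted p = 0.0429). Cxcl2 (0.16 ± 0.11, adjusted p = 0.701) and Cxcl3 (0.22 ± 0.10, adjusted p = 0.541) were not called. The count of 73 rested on single libraries: it was 12 without RIPK3 replicate 1 and 0 by edgeR without RIPK3 replicate 2, where 898 genes still had an unadjusted p under 0.05. Leaving out BimS replicate 1 or 2 gave 23 and 38, and leaving out WT replicate 1, 2 or 3 gave 148, 48 and 214. With the replicate block it was 2755.

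The last comparison was with cDC1s given the same media, using the test of the difference between the 2 cell types (the interaction). It was called for 217 of 19082 genes (1.14%). In the heme, iron and NRF2 list it was called for 11 of 29, and in each of the 11 the rise was smaller in cDC2s. Nqo1 rose by 1.52 in cDC2s and 2.92 in cDC1s, a difference of -1.39 (adjusted p = 0.0109). For Srxn1 the values were 0.89 and 1.92 (difference -1.02, adjusted p = 2.2e-06), and for Osgin1, a NRF2 target that restrains growth, 1.04 and 2.44 (difference -1.40, adjusted p = 3.81e-05). Hmox1 was not called, at 4.13 in cDC2s and 3.44 in cDC1s (adjusted p = 0.0963). ISGs gave 5 calls of 44, each with the larger fall in cDC2s. Dhx58, an RNA sensor of the RIG-I family, changed by -1.50 in cDC2s and -0.12 in cDC1s (difference -1.37, adjusted p = 9.25e-05). Oasl2 changed by -1.67 and -0.42 (difference -1.25, adjusted p = 0.00361), and Mx1, Mx2 and Rsad2 were the others. Mmp19 rose in cDC2s, with an estimate near 0 in cDC1s (difference 1.57, adjusted p = 3.05e-08), and Il6 and Pfkfb3 likewise had positive differences, of 0.72 and 1.07 (adjusted p = 0.00116 and 3.86e-07). The count of 217 was 111 without RIPK3 replicate 2 of the cDC2s and 964 with the replicate block.

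**Figure D5:**
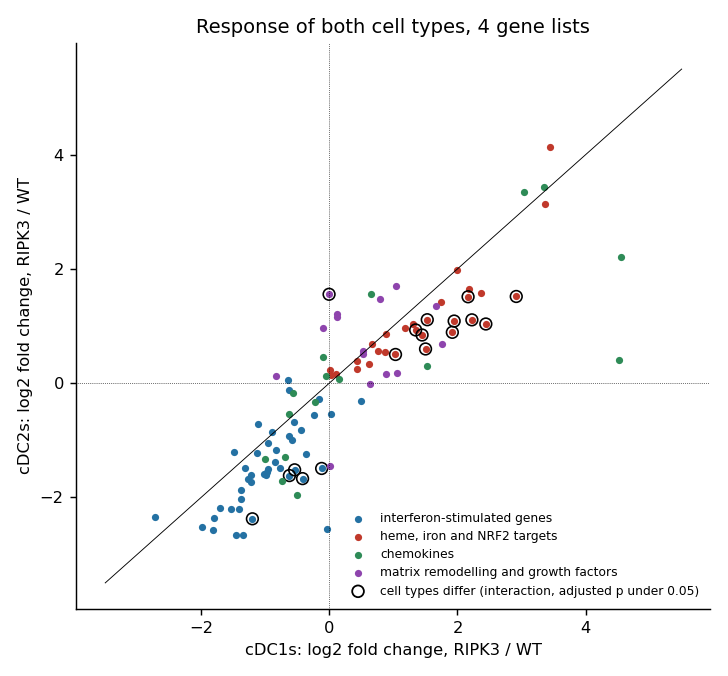
Log2 fold change of RIPK3 over WT medium in cDC2s (vertical axis) against that in cDC1s (horizontal axis) for the members of 4 gene lists, 1 point per gene; the line marks equal values. Circled points have a called difference between the cell types. Circled heme, iron and NRF2 genes lie below the line on the right, and circled ISGs below it on the left.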

How the data were processed

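RNA of sorted cDC2s was sequenced after poly-A selection. Per the study's methods, the authors trimmed reads with SeqPurge, aligned them to GRCm39 with STAR 2.7.10a and Ensembl gene models, and deposited raw counts per gene made with gensum. Use of strand is not given in the sources used here. Of 31239 lines, 148 without a gene ID (0.0258% to 0.028% of the cDC2 counts) were left out. Symbols came from GENCODE M39 for 30854 of 31091 IDs. Totals of the 5 samples ran from 16095159 to 18705082 counts, which limits what rare genes can show.

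Genes detected in 50% or more of the 8 cDC2 samples were fitted with edgeR 4.0.16 (R 4.3.3; TMM, robust quasi-likelihood, Benjamini-Hochberg threshold 0.05), 1 group per medium. The cell type interaction used all 17 samples. The code was tested on simulated data. Alternatives were DESeq2 1.42.0, limma 3.58.1 (trend, robust) on log2(count + 1) without scaling, RLE size factors, other filters and thresholds, only WT and RIPK3 samples, each cDC2 sample left out, and the replicate number as a block.

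The labels do not say what a replicate number shares. Deviations from the group means correlated at 0.265 to 0.788 in the 7 same-number pairs of samples (median 0.427), and above 0.1 in 3 of 14 other pairs (median -0.271), so the numbers were taken to pair the samples, from the data only. Deviations cancel out within a group, so that negative values in other pairs follow in part from positive ones in same-number pairs. With 2 RIPK3 samples the values mirror each other: WT replicate 1 had 0.372 with RIPK3 replicate 1 and -0.372 with RIPK3 replicate 2. The pairs are thus not separate pieces of evidence, and the pairing remains an assumption. The biological coefficient of variation was 9.58%, and 3.87% with the block. The median prior degrees of freedom were 14.3, and infinite with the block, so its p-values borrow most of their precision from other genes.

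The comparison and the gene lists were chosen with earlier results of these data known. Genes named were the 15 largest rises and falls among called, non-overlapping genes with a mean log2 CPM of 3 or more, up to 4 called members and the leading members of each list, the 8 called genes with the largest CPM differences, and genes at no more than 3 counts in every WT sample and at least 10 in both RIPK3 samples. Other list members are named in passing. Some results, a promoter sequence among them, are not reported here. Promoters are the 250 bases before the GENCODE canonical start.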

Additional observations from a re-analysis of the deposited data

Results flagged for a closer look

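The response to RIPK3 medium was compared between cDC2s and cDC1s by the interaction term of an edgeR fit to all 17 samples, and 23 of the named genes passed an adjusted p of 0.05. Differences are given as the cDC2 minus the cDC1 log2 fold change. Of these 22 are described here without an explanation.

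In 12 of them the cDC2 value was the lower. Antioxidant genes that rose less in cDC2s were Nqo1 (-1.39, adjusted p = 0.0109), Srxn1 (-1.02, adjusted p = 2.2e-06) and Slc7a11 (-0.89, adjusted p = 0.00525). The same held for the transcription factors Fosl1 (-1.32, adjusted p = 0.017), Egr2 (-1.13, adjusted p = 0.00493) and Atf3 (-0.67, adjusted p = 0.00732). It held also for Sel1l3 (-1.54, adjusted p = 0.0021), the lectin Clec4n (-1.17, adjusted p = 2.43e-06) and the acid lipase Lipa (-0.89, adjusted p = 2.97e-05). Sel1l3 rose by 2.23 in cDC2s and 3.78 in cDC1s. Interferon-induced genes fell more in cDC2s, namely Oasl2 (-1.25, adjusted p = 0.00361), Mx1 (-0.99, adjusted p = 0.027) and Psmb8 (-0.45, adjusted p = 0.0396).

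In 10 others the cDC2 value was the higher. The metalloproteinase Mmp19 differed by 1.57 (adjusted p = 3.05e-08), the desaturase Fads2 by 1.35 (adjusted p = 0.00895) and the glycolytic regulator Pfkfb3 by 1.07 (adjusted p = 3.86e-07). Pfkfb3 rose by 0.76 in cDC2s and had -0.30 in cDC1s. Sgk1 (1.04, adjusted p = 3.86e-07) rose more in cDC2s. Secreted factors in this group were Il6 (0.72, adjusted p = 0.00116), Vegfa (0.68, adjusted p = 7.43e-05) and Tgfb1 (0.44, adjusted p = 0.00756). The receptor Lrp1 differed by 0.65 (adjusted p = 0.00269) and the proapoptotic Bcl2l11 by 0.36 (adjusted p = 0.0474). The Fc receptor Fcgr1 changed by -0.65 in cDC2s and -2.12 in cDC1s, a difference of 1.48 (adjusted p = 0.00199).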

How the results depend on the processing

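The count of 1387 called genes (756 higher, 631 lower) was within 1.5 times of itself with DESeq2, RLE size factors, other filters, limma and only the WT and RIPK3 samples. Adding the replicate block gave 4126 (1933 higher, 2193 lower), and 4064 (1995 and 2069) in the 4 paired samples alone. Limma on log2(count + 1) called 364 higher and 1236 lower. At an unadjusted p under 0.05, 1853 genes changed by over 0.5 on the log2 scale (857 higher, 996 lower), and at over 1 there were 811 genes (426 higher, 385 lower). Leaving out 1 sample gave 622 to 1819 genes (394 to 921 higher, 228 to 898 lower), the lowest without RIPK3 replicate 2. The 73 genes that differed between RIPK3 and BimS became 144 with DESeq2, 148 with limma, 46 with filterByExpr, 300 with no filter, 2755 with the replicate block and 0 to 214 with 1 sample left out. The 217 interaction calls became 371 with no filter, 964 with the block and 111 to 258 with 1 sample left out. The causes were not tested. Of 181 named genes 119 were called, and 68 of these kept direction and call under every alternative they had a value in. No named gene that was called changed direction. Hmox1 lost its call only in the 4 paired samples (4.22, adjusted p = 0.0797). Without RIPK3 replicate 1 or 2, 33 and 31 named genes lost theirs, with limma 22. With 1 RIPK3 sample left, that sample is assumed to vary like the other groups. Genes at a few counts were not detectable at this depth.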

Other observations

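Further genes among those called lay outside the lists above. They were chosen after their values were seen, so their calls are a description. The phospholipase Pla2g4a, which releases arachidonic acid, rose by 1.16 ± 0.11 (adjusted p = 9.39e-07), Pla2g7, which degrades platelet-activating factor, by 1.67 ± 0.15 (adjusted p = 4.51e-06) and the prostacyclin receptor Ptgir by 1.37 ± 0.15 (adjusted p = 4.03e-06). The prostaglandin receptor Ptger4 fell by 0.71 ± 0.12 (adjusted p = 0.000704, and 0.0608 without RIPK3 replicate 2). Tiparp, a target of the aryl hydrocarbon receptor, had 32.4, 19.3 and 15.1 CPM with WT medium and 126 and 99.4 CPM with RIPK3 medium (log2 fold change 2.34 ± 0.31, adjusted p = 0.00644), with no overlap between the groups. Cyp1b1, a cytochrome P450 at low counts, rose by 2.83 ± 0.61 (adjusted p = 0.00494, and 0.154 without RIPK3 replicate 1). Ahrr, a repressor of that receptor, rose by 1.24 (adjusted p = 0.0417), a call kept in 2 of 8 leave-outs only, with adjusted p-values from 0.00177 to 0.358. The receptor gene Ahr itself was not called (log2 fold change 0.22 ± 0.12, adjusted p = 0.362). The receptors Trem1 and Treml4 rose by 1.64 and 1.54, and Entpd1, the ectoenzyme CD39 that degrades extracellular ATP, by 1.64. Slc11a1, a metal transporter of the phagosome, rose by 1.36.

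Among the falls were interferon-inducible genes of the Ifi200 family, picked because they were called, so that they say nothing of the rest of the family. Their log2 fold changes ran from -2.43 for Ifi206 and -1.37 for Ifi211 over Mndal (-1.07), Ifi207 (-1.01), Ifi205 (-0.81) and Ifi209 (-0.78) to -0.42 for Ifi204. These genes are close paralogs, so the split of reads among them is uncertain, and the Ifi204 call was lost without WT replicate 2 (adjusted p = 0.0762) or RIPK3 replicate 1 (0.183) or 2 (0.104). The kynurenine pathway enzymes Kmo and Kynu fell by 1.20 and 1.29 (adjusted p = 3.93e-08 and 1.11e-06). Aldh1a2, which makes retinoic acid, fell by 1.22 (adjusted p = 0.00103) and the glutathione peroxidase Gpx1 by 0.97 (adjusted p = 9.86e-06), the latter against the direction of the other antioxidant genes. Cst3, which encodes the protease inhibitor cystatin C, had 1135, 1274 and 1424 CPM with WT medium and 646 and 683 CPM with RIPK3 medium (log2 fold change -0.94 ± 0.10, adjusted p = 2.21e-06), and the groups did not overlap. In cDC1s its value was -0.03, a difference of -0.91 (adjusted p = 1.09e-05).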
